A study of Rattus norvegicus with 18 samples.

Results

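Fat of rats that were gaining weight after gastric bypass was set against fat of pair-fed rats on 6 of the study's 18 arrays. The 6 arrays, 3 in each group, were chosen by their titles. Roux-en-Y gastric bypass (RYGB) leaves a small gastric pouch that empties straight into a lower stretch of intestine. RYGB-Fail animals were gaining weight after the operation, and Pair-Fed animals were given as much food as the operated ones ate. The tissue was subcutaneous abdominal fat, and the 3 samples of a group were described as biological replicates. Total RNA came from Qiagen RNeasy preparations, and Nugen WT Ovation gave the biotin-labelled target. Strain, sex, age, the time after surgery and whether Pair-Fed rats had sham surgery are not given in the sources used here. The other 3 fat arrays came from RYGB-Success animals, which were losing weight. They shared the estimate of the spread and served as a second comparison. Arrays are called by group and replicate number, such as Fail 1.

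Skeletal muscle is built of sarcomeres, in which thick filaments of myosin slide along thin filaments of actin. Troponin and tropomyosin make this sliding depend on calcium, which the sarcoplasmic reticulum releases and takes up again. Fast and slow fibres use different genes for the same parts. White adipocytes store triglyceride in a lipid droplet coated by perilipins, fill it with fatty acids taken up from blood or made from glucose, and release fatty acids by lipolysis. Genes of muscle and of fat were followed separately.

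A signal is the deposited intensity of a probe set, and a change is the difference of mean log2 signal, RYGB-Fail minus Pair-Fed, ± its SE from a limma fit over the 9 fat arrays. In limma with Benjamini-Hochberg adjustment, 0 of 18625 probe sets (0%) passed an adjusted p of 0.05. At an unadjusted p under 0.05, 264 probe sets (1.42%) were higher in RYGB-Fail and 237 (1.27%) lower. This balance depended on the scaling: 202 were higher and 76 lower with each array centred on its median, and 644 and 4 with each centred on its adipocyte markers. With array weights they were 258 and 843. All 3 Fail arrays lay above all 3 Pair-Fed arrays for 479 probe sets (2.57%) and below them for 807 (4.33%). Among the 4300 bright probe sets, those with a mean signal of at least 1000, the shares without overlap were 0.535% above and 9.28% below. The median change was -0.09 over all probe sets tested and -0.24 over the bright ones. Of all probe sets tested 7801 were higher and 10824 lower, and of the bright ones 999 and 3301. Counts of higher or lower genes in a list should be read beside these. Since nothing passed over all probe sets, every difference below is a description of these 6 arrays with the spread beside it.

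One array stood apart before any gene was considered. Fail 3 had a median signal of 287.7, while the remaining 8 fat arrays had 98.2 to 200. Its median correlation with those arrays was 0.73, and theirs were 0.794 to 0.848. Its bacterial spike-in control bioB had a mean of 16399, against 2499 to 8352, and its beta-actin 3' to 5' signal ratio was 2.46, against 12.03 to 24.26. Its GAPDH 3' to 5' ratio of 3.8 lay inside the range of the others, 2.91 to 5.89. Without Fail 3, limma called 44 probe sets at an adjusted p under 0.05, 42 of them higher in RYGB-Fail. With array weights it called 35, and with each array centred on its adipocyte markers 21, all of them higher. These alternatives shared 18 probe sets. The 44 held probe sets of 23 genes from the muscle lists, 10 other named genes and 0 genes from the lists of fat cell biology. The arrays carried the marks of fat: Adipoq, the adipocyte hormone adiponectin, had signals of 17271, 18123 and 60117 in RYGB-Fail and of 25647, 39668 and 29888 in Pair-Fed.

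Genes of skeletal muscle had by far the largest differences. Of 45 tested genes from 5 lists (thick filament, thin filament, Z-disc, calcium handling and muscle energy supply), 45 were higher in RYGB-Fail, with a median change of 3.69. An unadjusted p under 0.05 was reached by 39, and for 28 the groups did not overlap, against 2.57% of all probe sets. The filter took the mean over all 9 fat arrays, so genes low in Pair-Fed could enter through high signals on Fail arrays. These counts are therefore partly set by the filter. With genes under the filter included, 69 of 73 were higher, with a median of 3.64. The median of the 45 tested genes was 2.89 above the Pair-Fed mean on Fail 1, 6.89 on Fail 2 and 1.79 on Fail 3. Fail 2 was the highest of the 3 for 43 of the 45 genes, and the order Fail 2, Fail 1, Fail 3 held for 34. Of the 73 genes of these lists on the array, 62 had a signal above 1000 on Fail 2, 27 on Fail 1 and 3 on Fail 3. Such a signal was reached on at least 1 Pair-Fed array by 3 genes and on at least 1 Success array by 2. For 30 genes every Pair-Fed array lay under 88.9, the lowest mean signal that entered the test.

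The promoters of 3 of these genes are shown because actin, creatine kinase and the fast myosin heavy chain had high signals on the same arrays. Each is the 250 bases before the gene's start in RefSeq's rat assembly GRCr8. Capitals mark CAGCTG, an E-box sequence of the kind that myogenic factors such as MyoD bind, and TATAAA, the TATA box.
Acta1, chr19:68784195-68784444, minus strand: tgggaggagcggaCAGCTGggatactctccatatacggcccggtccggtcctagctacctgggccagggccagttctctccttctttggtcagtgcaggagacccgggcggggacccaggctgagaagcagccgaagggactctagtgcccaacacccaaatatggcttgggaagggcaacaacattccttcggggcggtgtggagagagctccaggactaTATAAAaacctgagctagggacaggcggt
Ckm, chr1:88189211-88189460, plus strand: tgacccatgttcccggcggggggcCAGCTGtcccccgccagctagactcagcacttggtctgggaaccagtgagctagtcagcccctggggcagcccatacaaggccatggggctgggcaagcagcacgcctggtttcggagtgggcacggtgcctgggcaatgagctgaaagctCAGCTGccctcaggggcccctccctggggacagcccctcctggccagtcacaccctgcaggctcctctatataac
Myh4, chr10:52421898-52422147, plus strand: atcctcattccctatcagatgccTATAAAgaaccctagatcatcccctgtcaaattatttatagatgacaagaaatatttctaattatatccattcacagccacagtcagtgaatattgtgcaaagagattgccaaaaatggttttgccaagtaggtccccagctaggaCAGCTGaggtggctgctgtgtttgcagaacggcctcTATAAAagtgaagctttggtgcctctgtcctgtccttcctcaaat
CAGCTG reads the same on both strands, and TATAAA was searched on the gene's strand. CAGCTG stood in 12% of 33469 promoters of this length. It was found in 6 of the 16 genes of the muscle level list (see the next paragraph) that had a promoter sequence, or 37.5%, and in 4 of 13 lipid droplet genes, or 30.8%. TATAAA stood in 8.06% of all promoters, in 4 of the 16 muscle genes and in 0 of the 13 droplet genes. These counts describe letters in a window and not binding.

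A muscle level was computed for each array as the mean log2 signal of 18 genes of skeletal muscle, most of them from the fast fibre list. It was 11.56 on Fail 1, 14 on Fail 2 and 8.39 on Fail 3. In Pair-Fed it was 6.15, 6.67 and 5.21, and in RYGB-Success 6.87, 7.28 and 7.97. All 3 Fail arrays therefore lay above all 6 others, by an amount that differed widely between them. The 18 genes took 0.438%, 1.55% and 0.138% of the summed signal of the 3 Fail arrays, and 0.0586% to 0.0700% in Pair-Fed. Myh1, which is among them, had far higher signals in Pair-Fed and on Fail 3 than the other genes of the list named below. The shares in Pair-Fed and on Fail 3 therefore lean on its brightest probe set. The fat was measured as bulk tissue, so more muscle cells and more muscle RNA per cell cannot be told apart.

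In the thick filament, Mybpc2, the fast form of myosin-binding protein C, had the lowest p among the higher genes named by rule. Its signals were 3906, 24048 and 395 in RYGB-Fail and 50, 9.30 and 15.9 in Pair-Fed. The change was 7.42 ± 1.18 (adjusted p = 0.4, limma), and the fold was at least 37.5 with every array held at no less than 88.9. That floor is the filter's and not a measured detection limit. Myl1, a fast myosin light chain, had signals of 11446, 23748 and 808 against 162, 311 and 159, a change of 4.91 ± 0.93 (limma adjusted p = 0.827). Myh4, the myosin heavy chain of the fastest fibres, had 4380, 21106 and 207 against 37.0, 68.3 and 58.9. In each of these genes the lowest Fail array was Fail 3, which still lay above every Pair-Fed array. The 5 tested probe sets annotated to Myh1, another fast myosin heavy chain, behaved otherwise. Whether they measure that gene was not tested. The brightest had signals of 9077, 13290 and 24222 against 11944, 13084 and 14074, with overlap and a change of 0.14 ± 0.37, and all 5 changes had the same sign.

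Thin filament genes had the same pattern. Acta1, skeletal muscle actin, had signals of 7320, 22903 and 323 in RYGB-Fail and 34.1, 138 and 2.49 in Pair-Fed, a change of 7.38 ± 1.52 and a fold of at least 36.8 (limma adjusted p = 0.827). The fast troponins followed. Tnnc2, the calcium-binding troponin C of fast fibres, had 12380, 29095 and 346 against 15.7, 82.1 and 88.1. Tnni2, the inhibitory subunit, had 5803, 25289 and 507 against 145, 163 and 78.3. Neither gene overlapped between the groups. Tpm1, a tropomyosin that is also made outside muscle, differed between its probe sets: 1 had signals of 7497, 26869 and 541 against 137, 283 and 225, while 4 of its 5 tested probe sets were higher and 1 was lower. The change was 4.54 on the named probe set and 2.70 as the mean of all.

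At the Z-disc and along the sarcomere, the giant proteins were higher too. Ttn, titin, had signals of 2106, 10944 and 519 in RYGB-Fail and 101, 53.7 and 101 in Pair-Fed, a change of 4.81 ± 1.02 (limma adjusted p = 0.92). Neb, nebulin, had 1174, 3963 and 442 against 86.1, 75.7 and 52.4 on 1 probe set. On its brightest probe set the signals were 286, 2534 and 1253 against 300.0, 469 and 340.0, with overlap. Actn3, the alpha-actinin of fast fibres, had 1059, 18064 and 275 against 107, 169 and 31.7. Tcap, which anchors titin, had 598, 10180 and 326 against 120.0, 120.0 and 71.4. Fail 2 was the highest array for each of them.

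Calcium handling genes were likewise highest on Fail 2. Atp2a1, the calcium pump of fast fibres, had signals of 5121, 24181 and 398 against 15.2, 51.1 and 5.68, a change of 7.81 ± 1.24 and a fold of at least 41.2 (limma adjusted p = 0.4). Ryr1, the calcium release channel, had 4858, 21522 and 430 against 179, 190 and 174. Pvalb, the calcium buffer parvalbumin, had 7206, 23672 and 21.4 against 23.0, 115 and 5.89. Pvalb was high on Fail 1 and Fail 2 and within the Pair-Fed range on Fail 3, so its groups overlapped.

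The enzymes that supply energy to muscle had a median of 4.58 over 11 tested genes, with 11 of 11 at an unadjusted p under 0.05. Over all 15 on the array, with those under the filter included, 14 were higher, with a median of 4.40. The median of tested genes was 1.28 without Fail 2, 5.98 without Fail 3 and 2.81 with only the upper 40% of probe sets. Without Fail 2 the medians of the other 4 lists were 2.12 to 2.63. Ckm, muscle creatine kinase, had signals of 3792, 23944 and 260 in RYGB-Fail and 7.57, 63.7 and 4.22 in Pair-Fed, a change of 7.82 ± 1.57 and a fold of at least 32.3 (limma adjusted p = 0.827). Pygm, the phosphorylase that breaks down muscle glycogen, had 1351, 12444 and 217 against 14, 55.2 and 59.6, a change of 5.42, or 3.52 as the mean of its probe sets. Eno3, muscle enolase, had 4581, 24300 and 485 against 210, 156 and 175. Mb, the oxygen store myoglobin, had 1716, 10804 and 23.9 against 65.3, 18.0 and 10.1, with Fail 3 inside the Pair-Fed range.

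**Figure D1:**
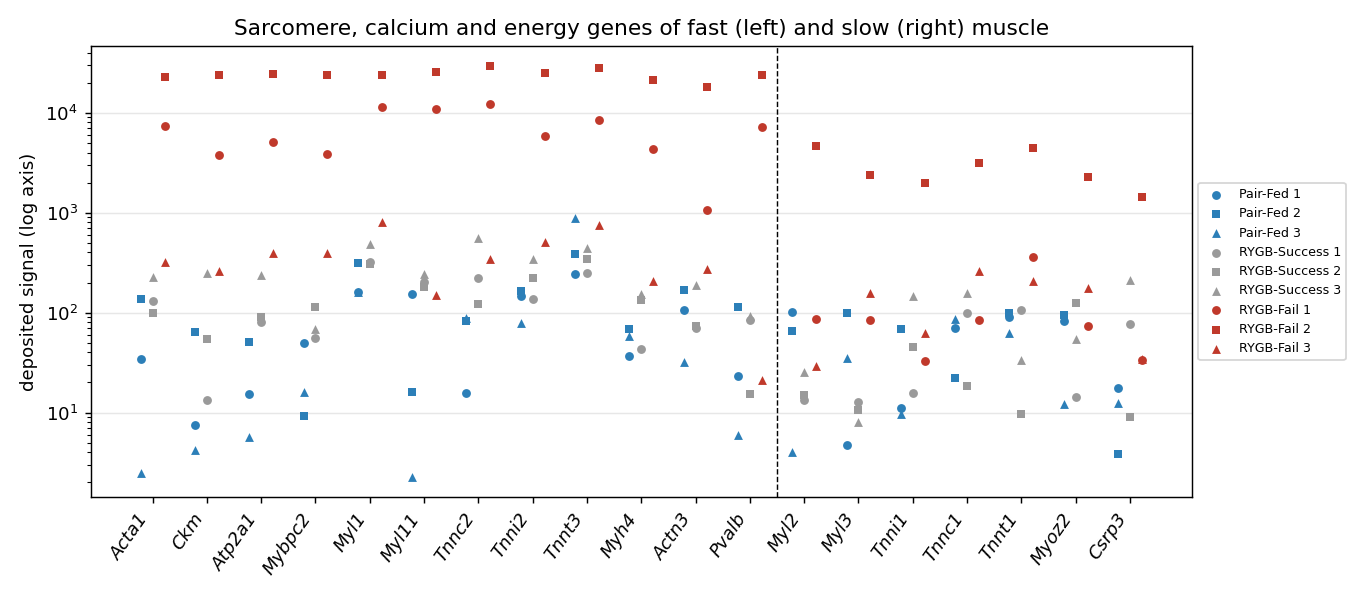
Deposited signal on a log axis for 12 genes left of the dashed line and 7 of slow muscle right of it. Those on the left are fast fibre genes, with Acta1 and Ckm, which are not in the fast fibre list. Each point is 1 array, and shapes give the replicate number. The slow genes Atp2a2, Casq2 and Myh7 are not shown. Fail 2 (red squares) is highest for every gene shown, and Fail 1 (red circles) is second for the genes on the left. For the slow genes Fail 1 and Fail 3 lie far below Fail 2.

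Fast and slow fibre genes divided the Fail arrays. The 11 tested fast genes had medians of 6.37, 8.64 and 2.01 above the Pair-Fed mean on Fail 1, Fail 2 and Fail 3. The 4 tested slow genes had 0.37, 4.12 and 1.15, and their median change of 2.00 turned to -0.13 without Fail 2. Of the 4, 3 were higher and 1 was lower. The lower one was Atp2a2, a calcium pump, with a change of -0.52. It lay 0.02, -0.55 and -1.01 from the Pair-Fed mean on Fail 1, Fail 2 and Fail 3. Of all 10 slow genes on the array 8 were higher. Tnnt1, slow troponin T, had signals of 360.0, 4470 and 208 in RYGB-Fail and 90.2, 99.7 and 63.0 in Pair-Fed. Tnnc1, the troponin C of slow and heart muscle, had 84.5, 3155 and 263 against 69.9, 22.3 and 86.4. Further slow genes had a mean signal under the filter and were looked at after their values were seen. Myl2, a slow myosin light chain, had signals of 86.3, 4641 and 28.9 against 102, 66.2 and 4.03. Myl3, Tnni1, Myoz2 and Csrp3, other slow fibre parts, reached 1452 to 4641 with Myl2 on Fail 2 and at most 175 on the other Fail arrays. Myh7, the slow myosin heavy chain itself, was at 39.1, 39.5 and 159 against 55, 132 and 50.5. Apart from Myh7 and Atp2a2, the slow genes named here were high on Fail 2, and on Fail 1 they stayed at 360.0 or less, while Acta1 and Myl1 there had 7320 and 11446.

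Genes that control muscle formation were higher by smaller amounts. Of 9 genes of this list on the array 4 were tested. All 4 were higher, with a median change of 0.61, and 0 of 4 reached an unadjusted p under 0.05. Their medians on Fail 1, Fail 2 and Fail 3 were -0.02, 2.28 and 0.96. With genes under the filter included, 9 of 9 were higher, with a median of 1.32. Myod1, the factor that sets the muscle programme, lay under the filter and was looked at after its values were seen. It had signals of 449, 6734 and 140.0 in RYGB-Fail and 14.1, 47.5 and 16.2 in Pair-Fed, with no overlap. Among genes of the muscle membrane and the nerve contact, the median change over 5 tested genes was 0.09. Over all 16 on the array, with those under the filter included, it was 1.55, and 13 were higher. Chrnb1, a subunit of the acetylcholine receptor, had 201, 1480 and 575 against 115, 92.2 and 165.

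Markers of other muscle types did not follow. Heart markers had summed list levels, as mean log2 signal over the 10 genes on the array, of 4.22 to 6.45 in RYGB-Fail and 4.73 to 5.13 in Pair-Fed. Nppa, the atrial hormone, had signals of 15.3 to 25.6 in RYGB-Fail and of 3.39 to 65.9 in Pair-Fed. The 10 smooth muscle genes had a median change of 0.17, with 5 higher and 5 lower and medians by Fail array of 0.14, -0.27 and 0.27. With only the upper 40% of probe sets it was -0.20, and without Pair-Fed 3 -0.08. Myh11, the smooth muscle myosin, had signals of 909, 870.0 and 1352 against 1429, 1181 and 1166. In the hypothalamus of the same treatment groups the muscle level was 5.49 to 5.86 in RYGB-Fail and 5.83 to 6.02 in Pair-Fed.

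Pairs of genes that serve the same step in muscle and in other tissues showed the contrast within a pathway. Of 23 listed pairs 20 were on the array. The muscle form had the larger change in 19 of the 20, with a median of 4.22, against -0.32 for the other form. A change above 1 was found for 18 muscle forms and 2 of the others. Those 2 were Tnnc1 and Mybpc1, at 3.01 and 2.20, which are the slow counterparts of Tnnc2 and Mybpc2 and belong to muscle as well. Ckb, the creatine kinase of brain and other tissues, had signals of 568, 468 and 258 in RYGB-Fail and 1049, 534 and 439 in Pair-Fed, while Ckm differed by 7.82. Pygl, the liver phosphorylase, had 505, 548 and 176 against 572, 679 and 790.0. Eno1, the general enolase, had 1039, 909 and 1210 against 981, 990.0 and 1134, a change of 0.02 ± 0.29. The exception was Acacb and Acaca, the mitochondrial and cytosolic acetyl-CoA carboxylases, at 0.01 and 0.39.

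**Figure D2:**
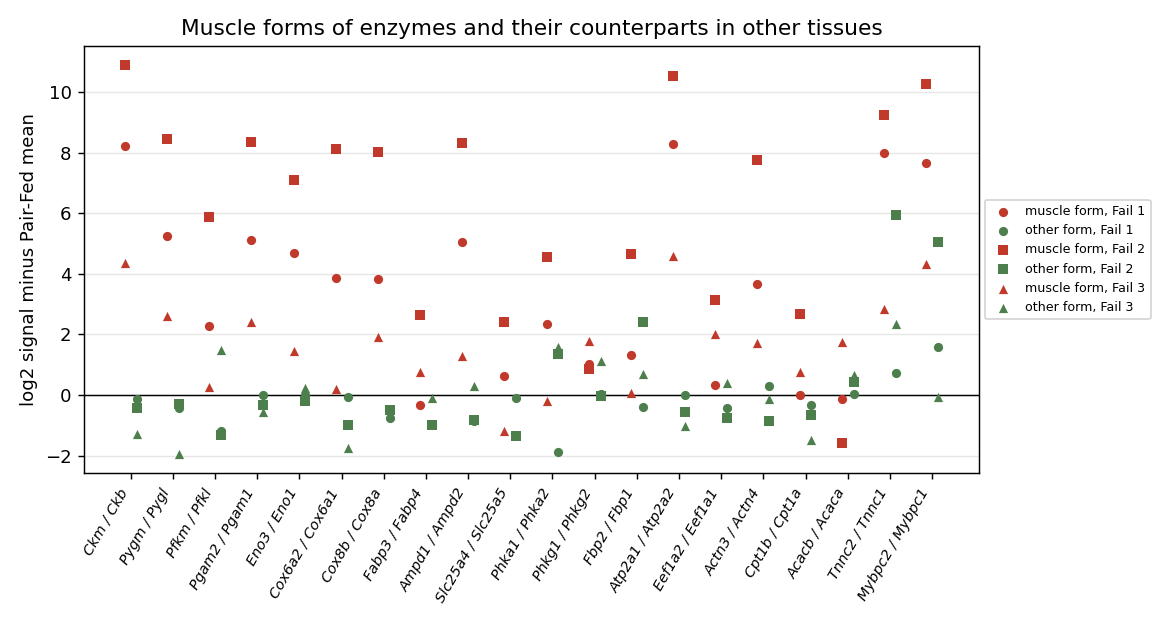
For 20 pairs, log2 signal on each Fail array minus the Pair-Fed mean, with the form typical of muscle in red and its counterpart in green; shapes give the Fail array. Most red points rise above 1 in the order Fail 2, Fail 1, Fail 3, while the green points lie lower, the highest being those of Tnnc1 and Mybpc1 on Fail 2.

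Genes outside the lists were named by the lowest p for a slope on the muscle level within groups. Besides the genes described in this paragraph, the rule named Pabpc4, Tpm1 and Sumf2. Signals of Tpm1 are given with the thin filament genes and those of Pabpc4 with the fit at equal muscle level. Those of Sumf2 are not printed. Hjv, hemojuvelin, an iron regulator made in muscle and liver, had signals of 1676, 16383 and 308 in RYGB-Fail and 65.7, 92.6 and 59.6 in Pair-Fed, a change of 4.84 ± 1.04 (limma adjusted p = 0.92). Smtnl2, a smoothelin-like protein, had 1492, 14642 and 430.0 against 149, 86.0 and 42.1. Adss1, the muscle form of an enzyme that makes AMP, had 3669, 15820 and 393 against 719, 294 and 260.0, with overlap. Mrln, the calcium pump regulator myoregulin, had 354, 4379 and 77.3 against 93.2, 139 and 78.8. Pdlim3, a Z-disc protein, had 484, 5736 and 128 against 239, 153 and 76.9. Mrln and Pdlim3 lay above all Pair-Fed arrays on Fail 1 and Fail 2 but not on Fail 3. Leaving out the muscle lists, limma called 254 probe sets with a positive and 496 with a negative slope at an adjusted p under 0.05, and over all probe sets the shares were 1.55% and 2.66%. The balance turned with the scaling: positive slopes were 3795 of 4363 calls with median centring, 1698 of 1819 with adipocyte centring and 802 of 1562 with quantile normalization. The count was 0 without Fail 2 and 0 without Fail 3, so it rests on both of these arrays. It was 45 without Pair-Fed 1 and 338 without Success 1, and rose to 1246 without Fail 1 and 1705 without Success 3. The muscle level was lowest on Fail 3 among the Fail arrays, so the slope and the traits of that array cannot be told apart.

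Mitochondrial genes were high on 1 Fail array. Of 59 genes of the respiratory chain, 56 lay above the Pair-Fed mean on Fail 2, 15 on Fail 1 and 10 on Fail 3. Their medians on the 3 arrays were 1.12, -0.17 and -0.50, in that order, and the group's median change was 0.13. An unadjusted p under 0.05 was reached by 1 gene higher and 2 lower, against 1.42% and 1.27% of all probe sets. Without Fail 2 the medians of complex I, complexes II and III, and complex V turned to -0.25, -0.25 and -0.29. Atp5f1a, a catalytic subunit of the ATP synthase, had signals of 9800 on Fail 2, 2766 on Fail 1 and 2031 on Fail 3, against 2890, 3811 and 2397 in Pair-Fed. The citric acid cycle had medians of -0.20, 1.49 and -0.28 on Fail 1, Fail 2 and Fail 3, and its median change of 0.36 was -0.12 without Fail 2. Idh3a, a subunit of its isocitrate dehydrogenase, had 567, 2692 and 795 against 402, 469 and 444, with no overlap. Ndufs4, a subunit of complex I, had 483, 651 and 602 against 358, 264 and 294, a change of 0.92 ± 0.34, with the 3 Fail arrays close together. The muscle level of Fail 2 was the highest of the 9 fat arrays. With the muscle level as a covariate, complex I, complexes II and III, complex V and the citric acid cycle had medians of -0.96, -1.20, -0.96 and -0.92. With the share of summed signal taken by muscle genes as the covariate they were -0.51, -0.54, -0.50 and -0.46. The fit at equal muscle level cannot tell that level from the traits of Fail 3. A separate part of muscle in the mitochondrial values was not tested.

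**Figure D3:**
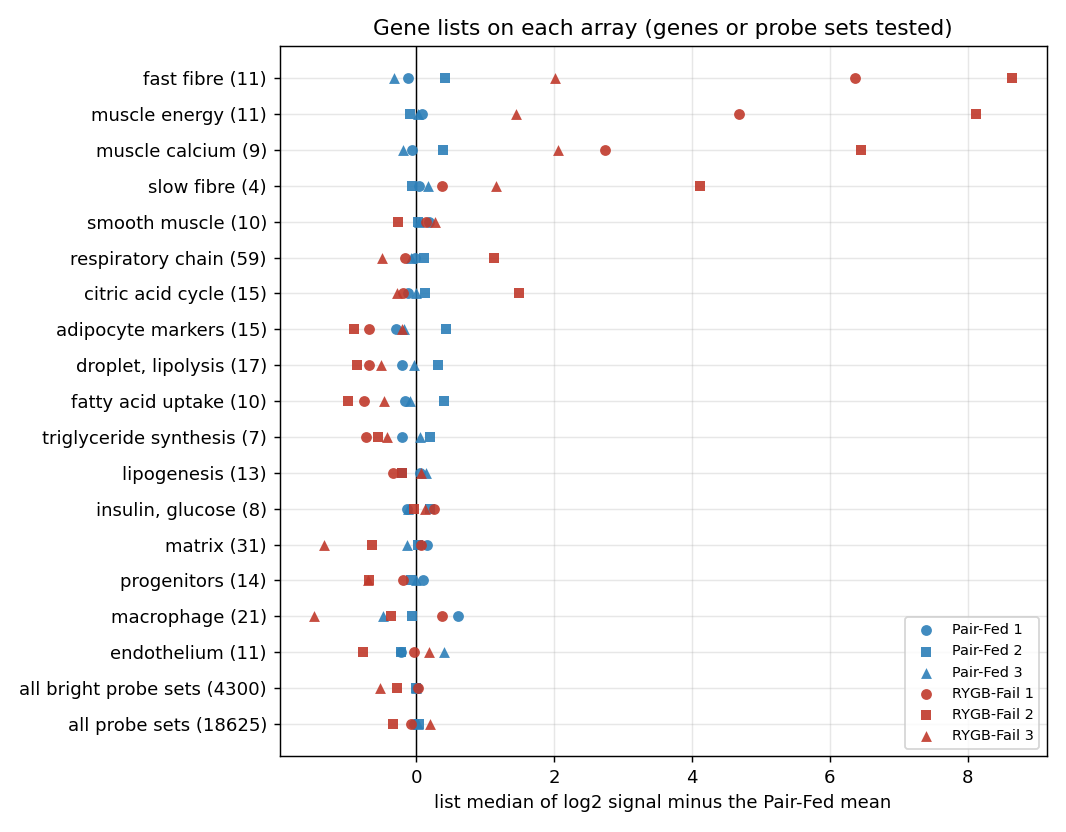
Median over each gene list of log2 signal minus the Pair-Fed mean, with 1 point per array and the number of genes or probe sets tested in brackets. Muscle lists spread to the right in the order Fail 3, Fail 1, Fail 2 for fast fibre and energy genes, the mitochondrial lists stand out on Fail 2 only, the droplet, uptake and triglyceride lists have all 3 Fail points left of all Pair-Fed points, and the matrix and macrophage lists are lowest on Fail 3.

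Genes of the lipid droplet and of lipolysis were lower in RYGB-Fail. All 17 tested genes had negative changes, with a median of -0.61. Of all 18625 probe sets tested 10824 were lower, and of the 4300 bright ones 3301. An unadjusted p under 0.05 was reached by 5 of the 17, against 1.27% of all probe sets and 3.37% of bright ones that were lower at this level. For 8 of 17 the groups did not overlap, against 4.33% and 9.28%. The medians by Fail array were -0.69, -0.86 and -0.52, and by Pair-Fed array -0.21, 0.32 and -0.04. Over bright probe sets the Fail arrays had 0.02, -0.28 and -0.53, so on Fail 3 the droplet genes lay at the level of bright probe sets and on Fail 1 and Fail 2 below it. The median change was -0.59 without Fail 2, -0.64 without Fail 3 and -0.54 without Pair-Fed 2. Fewer adipocytes and less of these RNAs per adipocyte cannot be told apart in bulk tissue.

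Cidea, a droplet protein that drives lipid transfer between droplets, had the lowest p of this list. Its signals were 474, 426 and 850.0 in RYGB-Fail and 1341, 1187 and 1498 in Pair-Fed, a change of -1.27 ± 0.37 (limma adjusted p = 1), and no Fail array reached a Pair-Fed array. Sncg, gamma-synuclein, a droplet-binding protein of adipocytes, had 4890, 2755 and 2817 against 9185, 11296 and 7072, a change of -1.42 ± 0.43. Fitm2, which is needed for droplets to bud, had 2980, 1752 and 2172 against 4439, 8076 and 4053. Plin2, a droplet coat protein found in many cells, had 8883, 9729 and 7545 against 12141, 14315 and 14445, with all 3 Fail arrays below all 3 Pair-Fed arrays. Plin1, the perilipin of adipocytes, had 12532, 10964 and 23274 against 16704, 24613 and 21241, a change of -0.48 ± 0.37 with Fail 3 inside the Pair-Fed range.

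The lipases were also lower without overlap on their brightest probe sets. Pnpla2, adipose triglyceride lipase, which takes off the first fatty acid, had signals of 1286, 1351 and 906 in RYGB-Fail and 1360, 3082 and 1711 in Pair-Fed, a change of -0.73 ± 0.36. The lowest Pair-Fed array exceeded the highest Fail array by a margin well inside the spread. Lipe, hormone-sensitive lipase, which acts on the next step, had 339, 193 and 396 against 418, 738 and 533, a change of -0.89 ± 0.44. Its 2 tested probe sets had opposite signs, and their mean changed by -0.03. Neither passed over all probe sets (limma adjusted p = 1 for both).

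Genes that bring fatty acids into the adipocyte showed the same direction in 9 of 10 genes, with a median of -0.63. It was -0.37 without Pair-Fed 2 and -0.91 without Fail 3. Among bright probe sets 3301 of 4300 were lower. Rbp7, a retinol-binding protein of fat and its vessels that stands in this list for its fatty acid-binding family, had signals of 7258, 4462 and 5955 in RYGB-Fail and 9337, 16330 and 10914 in Pair-Fed, a change of -1.04 ± 0.28 (limma adjusted p = 1). It had the lowest p among the genes that were lower without overlap and with a fold of at least 1.5. Fabp5, a fatty acid carrier, had 1111, 935 and 862 against 2052, 2736 and 1453. Cd36, the fatty acid translocase, had 1403, 777 and 822 against 1396, 3642 and 1853, where Fail 1 lay just above the lowest Pair-Fed array. Fabp4, the main fatty acid carrier of adipocytes, had 12064, 12004 and 22412 against 17142, 39622 and 20059. Lpl, lipoprotein lipase, had 17064, 18428 and 58595 against 32043, 43672 and 34271. For Fabp4 and Lpl, Fail 1 and Fail 2 were below all Pair-Fed arrays and Fail 3 was not.

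Adipocyte markers as a whole gave the same direction with a wider spread. All 15 were lower, with a median change of -0.56, and 0 of 15 reached an unadjusted p under 0.05. For 4 the groups did not overlap, against 4.33% of all probe sets and 9.28% of bright ones. Lower changes were found for 3301 of 4300 bright probe sets. Of these markers 6 are also in the droplet list. Medians by Fail array were -0.69, -0.91 and -0.21, and by Pair-Fed array -0.29, 0.43 and -0.18. Pair-Fed 2 was the highest of its group, and without it the median was -0.35 without Pair-Fed 2. Pparg, the nuclear receptor of fat cell identity, had signals of 1180, 598 and 1291 in RYGB-Fail and 1219, 1914 and 1247 in Pair-Fed. Cebpa, its partner, had 11359, 10118 and 16200 against 15971, 18826 and 22649. Cfd, adipsin, had 8861, 7100 and 20688 against 9671, 23026 and 9897. All 3 overlapped between the groups.

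Secreted products of fat were lower in 8 of 9 tested genes, against 10824 of 18625 probe sets tested and 3301 of 4300 bright ones. Their median was -0.23. It was -0.07 without Fail 2, -0.55 without Pair-Fed 2 and -0.71 without Fail 3, and turned to 0.31 with adipocyte centring. Angptl4, which blocks lipoprotein lipase, had the largest difference, with signals of 1284, 2278 and 951 in RYGB-Fail and 2702, 5360 and 4383 in Pair-Fed, a change of -1.50 ± 0.51 without overlap (limma adjusted p = 1). Rbp4, the retinol carrier of plasma, had 5093, 3701 and 4669 against 8198, 7673 and 7675, also without overlap. Adipoq, given above, had a change of -0.23 ± 0.44. Ccl2, a monocyte attractant, had 1883, 379 and 617 against 1770.0, 891 and 752, with overlap. Lep, leptin, had 59.9, 17.2 and 191 against 89.4, 60.3 and 35.7 and lay under the filter.

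Synthesis of fat was followed in separate lists for triglyceride assembly and fatty acid synthesis, which were not tested against each other. The 7 tested genes of triglyceride assembly were all lower, with a median of -0.53, 0 of them at an unadjusted p under 0.05 and 3 without overlap, against 4.33% of all probe sets and 9.28% of bright ones. Negative changes were also found for 3301 of 4300 bright probe sets. Agpat2, which adds the next acyl chain to the glycerol backbone, had signals of 625, 332 and 763 against 1028, 1196 and 910.0. Dgat1, which makes the final triglyceride, had 1284, 863 and 1194 against 1717, 1656 and 2019, and Dgat2, which catalyses the same step, had 2357, 2181 and 2737 against 4055, 2101 and 3929 with overlap. Fatty acid synthesis had a median of -0.15 over 13 genes, 8 lower and 5 higher. An unadjusted p under 0.05 was reached by 2 of the lower genes, against 1.27% of all probe sets and 3.37% of bright ones. For 2 lower genes the groups did not overlap. Elovl5, a fatty acid elongase, had 14609, 11882 and 18794 against 21182, 24805 and 23492, a change of -0.64 ± 0.25, and Thrsp, a lipogenic nuclear protein, had 4034, 4020 and 5328 against 6752, 7706 and 6954. Neither overlapped. Fasn, fatty acid synthase, had 3443, 4652 and 7574 against 4276, 2638 and 5191. Acaca, which makes its substrate, had a change of 0.39 ± 0.42, and Scd, the stearoyl-CoA desaturase, one of 0.03 ± 0.90.

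Insulin action and heat production showed no common direction. The 8 tested genes of insulin signalling and glucose uptake had a median change of 0.17 and the 8 tested thermogenic genes one of -0.23, with 5 higher and 3 lower in the first list and the reverse in the second. Slc2a4, the insulin-dependent glucose transporter of both fat and muscle, had signals of 1659, 3437 and 484 in RYGB-Fail and 869, 696 and 1543 in Pair-Fed. Its order among the Fail arrays was that of the muscle genes. Irs1, the insulin receptor substrate, had 1317, 813 and 1376 against 918, 719 and 635. Ppargc1a, a regulator of mitochondria, had 79.7, 169 and 1097 against 67.5, 304 and 118, with only Fail 3 high. Ucp1, the heat-making protein of brown fat, was under the filter, at 62.2, 28.1 and 158 against 25.6, 48.4 and 100.

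The other lower genes named by their p had varied functions. Blvrb, biliverdin reductase B, had signals of 1291, 660.0 and 665 in RYGB-Fail and 2023, 1760.0 and 1702 in Pair-Fed, a change of -1.14 ± 0.33. Prps2, which makes the precursor of nucleotides, had 8738, 2530.0 and 7242 against 12289, 22940 and 14228. Anxa1, the phospholipid-binding annexin A1, had 8857, 5324 and 5407 against 10394, 12520 and 11811. Atl3, which shapes the endoplasmic reticulum, had 824, 373 and 610.0 against 1092, 1622 and 1726. Gnb1, a G protein subunit, Tdrp, a testis development protein, and Prc1, a protein of cell division, had changes of -0.86 ± 0.27, -1.46 ± 0.45 and -1.47 ± 0.43. The mean of all Tdrp probe sets changed by -0.90. All 7 were without overlap by the rule that chose them, and the limma adjusted p was 1 for each. Among the 807 probe sets whose Fail arrays lay below all Pair-Fed arrays, Fail 3 was the lowest for 48%, Fail 2 for 42.5% and Fail 1 for 9.54%. Among the 479 that lay above, Fail 2 was the highest for 57.4%, Fail 3 for 36.7% and Fail 1 for 5.85%.

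Matrix genes were lower, most of all on Fail 3. All 31 matrix genes had negative changes, with a median of -0.73, 2 at an unadjusted p under 0.05 and 10 without overlap, against 1.27% and 4.33% of all probe sets and 3.37% and 9.28% of bright ones. Of bright probe sets 3301 of 4300 had negative changes. Below the Pair-Fed mean were 13 of the 31 on Fail 1, 29 on Fail 2 and 31 on Fail 3, and the medians were 0.06, -0.64 and -1.34. The median change was -0.35 without Fail 3 and -1.17 without Fail 1. Fstl1, a secreted glycoprotein, had signals of 20944, 13608 and 9358 in RYGB-Fail and 29052, 32564 and 25442 in Pair-Fed, a change of -1.06 ± 0.36. Col4a2, a chain of basement membrane collagen, had 10814, 5919 and 10690 against 13863, 15434 and 16557. Col3a1, a fibrillar collagen, and Sparc, a collagen-binding protein, had changes of -1.03 ± 0.48 and -0.70 ± 0.33, both without overlap. The limma adjusted p was 1 for each of these 4 genes.

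Macrophage genes had medians of 0.37, -0.37 and -1.48 on Fail 1, Fail 2 and Fail 3, and their median change of -0.48 was 0.02 without Fail 3 and -1.02 without Fail 1. Lymphocyte genes had a median of 0.20, with 6 of 9 higher, and -0.27 without Fail 3. Mast cell genes had 0.05, with 4 of 6 tested genes higher. Over all 11 on the array, with those under the filter included, 4 were higher and the median was -0.50. Cd163, a scavenger receptor of resident macrophages, had signals of 5099, 4253 and 2636 in RYGB-Fail and 9060, 10985 and 3962 in Pair-Fed. Ccl6, a chemokine of rodent macrophages, had 13190, 11702 and 3799 against 21404, 15180 and 16635. Progenitor markers were lower in 14 of 14, against 10824 of 18625 probe sets tested and 3301 of 4300 bright ones. Their median was -0.52, with 0 at an unadjusted p under 0.05. Endothelial markers had a median of -0.19, or 0.03 without Fail 2. Nerve sheath genes had a median of -0.62 over 6 genes, -0.12 without Fail 2 and -0.97 without Fail 1. Pmp22, a myelin and fibroblast membrane protein, had 10612, 6027 and 6307 against 12128, 13511 and 11326. Blood cell genes had a median of -0.70, with -2.33 on Fail 3 and 0.17 on Fail 1, and -0.32 without Fail 3.

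Among response genes, Nr4a1, an orphan nuclear receptor induced within minutes of stimulation, had signals of 692, 592 and 358 in RYGB-Fail and 179, 209 and 221 in Pair-Fed. Its change of 1.38 ± 0.43 was without overlap (limma adjusted p = 1), while the 13 immediate-early genes together had a median of -0.09. Clock genes had a median of 0.42, with 12 of 15 higher, 0 at an unadjusted p under 0.05 and 1 without overlap, against 2.57% of all probe sets. The median was 0.19 without Fail 3 and 0.23 without Pair-Fed 1. Dbp, a transcription factor under clock control, was that gene, at 704, 633 and 756 against 399, 267 and 442. Heat shock, hypoxia, interferon and glucocorticoid target lists had medians between -0.13 and 0.08.

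Holding the muscle level equal was tried as a way to separate muscle genes from changes in fat. In this fit limma called 1 probe set at an adjusted p under 0.05, that of Pabpc4, a poly(A)-binding protein, with signals of 299, 2237 and 9.69 in RYGB-Fail and 254, 257 and 124 in Pair-Fed. At an unadjusted p under 0.05, 12.5% of probe sets were higher and 7.64% lower, or 2319 and 1423. The balance turned with the scaling, to 418 and 5567 with median centring, 523 and 1802 with adipocyte centring and 1728 and 2572 with quantile normalization. Outside the muscle lists, Fail 3 was the highest Fail array for 99.8% of the higher ones and the lowest for 99.4% of the lower ones, against 49.1% and 31.1% of all probe sets. St6galnac2, a sialyltransferase, had the lowest p among the higher genes, with signals of 247, 185 and 1442 against 268, 225 and 490.0. Fail 3 also had the lowest muscle level of the Fail arrays, so these shares follow in part from the fit itself. The counts of higher and lower were 598 and 427 without Fail 3, and 2130 and 1645 without Fail 2. They were 3082 and 1905 without Fail 1. The muscle level and the traits of Fail 3 cannot be told apart in the adjusted contrast. Its list medians were -0.25 for droplet genes, -0.47 for fatty acid uptake, 0.33 for adipocyte markers, 0.05 for triglyceride assembly and -1.18 for matrix. With the share of summed signal taken by muscle genes as the covariate in place of the mean log2 level, the same lists had -0.53, -0.38, -0.20, -0.49 and -0.78. That share includes the bright Myh1 probe set.

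Centring each array on its adipocyte markers expressed each change relative to those markers. The median of all probe sets then moved from -0.09 to 0.45. Droplet genes had a median of -0.08, fatty acid uptake genes -0.09, triglyceride assembly 0.01 and matrix -0.20. Relative to the median of all probe sets they lay at -0.52, -0.54, -0.44 and -0.64. Centring moves every probe set of an array by 1 value, so these distances equal those with the deposited scaling by construction. Of the centring markers, 6 are also in the droplet list and 1 is in the uptake list. Medians near 0 in those lists therefore follow in part from the centring. The medians of 16 lists turned positive, among them lipogenesis, thermogenic, progenitor, endothelial and ribosomal protein genes at 0.38, 0.30, 0.01, 0.35 and 0.29. Moved by the same amount, the 11 fast fibre genes had a median of 6.19. The turned signs and the place of the muscle genes are therefore no separate result.

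RYGB-Success fat gave a second reference for the same 3 Fail arrays. The contrast shares its Fail arrays with the one above, so it is no independent support. In limma 0 probe sets passed an adjusted p of 0.05 for RYGB-Fail minus RYGB-Success, 2.27% were higher at an unadjusted p under 0.05 and 3.43% lower. The counts were 422 and 638, but 493 and 180 with median centring, 623 and 108 with adipocyte centring and 510 and 475 with quantile normalization. By sign alone, 6974 probe sets were higher and 11651 lower, and 1628 and 2672 of the bright ones. Fast fibre genes had a median difference of 4.26, with 10 of 11 at an unadjusted p under 0.05. Droplet genes had -0.32, with 14 of 17 lower and 3 at that level, and fatty acid uptake genes -0.76, with 9 of 10 lower and 4 at that level. Rbp7 had signals of 15235, 12457 and 15866 in RYGB-Success, above all Fail arrays, and a difference of -1.32 ± 0.28. Cidea had 880.0, 848 and 506, inside the range of the Fail arrays and slightly above it. Sncg had 3260.0, 2258 and 930.0, with 2 of the 3 below all Fail arrays, and Blvrb had 707, 767 and 745, within their range. Matrix genes differed by 0.60, with 27 of 31 higher in RYGB-Fail, and progenitor markers by 1.05, so RYGB-Fail lay between Pair-Fed and RYGB-Success for the medians of both lists. Respiratory chain genes were higher in RYGB-Fail than in RYGB-Success in 56 of 59, with a median difference of 0.49. Relative to the Pair-Fed mean, their medians were -0.17, 1.12 and -0.50 on the Fail arrays and -0.18, -0.27 and -0.52 in RYGB-Success. Only Fail 2 stood clearly above the RYGB-Success arrays. Fasn was at 7453, 34680 and 19274 in RYGB-Success, a difference of -1.79 ± 0.50 for RYGB-Fail.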

How the data were processed

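The deposited values are linear probe set intensities that the authors made with Affymetrix MAS5 in GCOS, per the submitters' processing notes, which give no versions. Each array's trimmed mean, leaving out 2% at each end, lay near 500.2, so arrays share a scale, and a rise of some genes lowers others. There are no detection calls in the files used here.

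Log2 of the intensity was taken without a pseudocount and control probe sets were left out, leaving 31042. Of these, 20826 had 1 gene symbol, 436 several and 9780 none, and only the first were named. The upper 60% by mean signal in fat, 18625 probe sets, were tested with limma 3.58.1 (lmFit, eBayes with trend) in R 4.3.3, with all 9 fat arrays in the fit and Benjamini-Hochberg adjustment over all of them. Tables and plots used Python 3.11.15, pandas 2.3.3 and matplotlib 3.10.9. The fits were tested on simulated data.

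Further fits had the muscle level of each array as a covariate. A gene has its brightest probe set, unless it was named through another. The named genes were the 10 higher and 10 lower of lowest p without overlap and with a fold of at least 1.5, the 8 each way at equal muscle level and the 8 for the slope on it, all isoform pairs, a fixed set of adipocyte genes, and up to 4 members of lowest p of each list described (8 for muscle lists). Not all are printed. Members and lists were chosen with earlier results of these data known. The number of arrays, 3 in a group, limits the precision. Alternatives were log2(signal + 50), no filter or the upper 40%, 3 other scalings, array weights, no trend, the replicate number as a block, only the 6 arrays, the mean of a gene's probe sets, and leaving out each array. Promoters came from RefSeq.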

Additional observations from a re-analysis of the deposited data

Results flagged for a closer look

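For 3 genes every RYGB-Fail array lay on one side of every Pair-Fed array in fat and on the other side in the hypothalamus, and the difference between the tissues was not tested. In fat alone, 2.57% of all probe sets tested lay above without overlap and 4.33% below. The share on opposite sides in the tissues is not given here, so the count is only a description. Ccl6, the macrophage chemokine, had a change of -1.07 in fat and 1.04 in the hypothalamus. Cox8a, the general form of a cytochrome oxidase subunit, had -0.64 and 0.22. Pygm, muscle glycogen phosphorylase, had 5.42 and -0.37. The test for a single outlying value was not applied to single genes, since it needs groups of at least 4 arrays.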

How the results depend on the processing

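Of the alternatives tried for RYGB-Fail against Pair-Fed, adipocyte centring gave 21 calls, array weights 35 and leaving out 1 array 0 to 44, with 0 under the rest. At an unadjusted p under 0.05 264 probe sets were higher and 237 lower with all arrays, and 483 and 1537 without Fail 3. At equal muscle level the 1 call became 0 with log2(signal + 50), array weights, no trend, the replicate block or the muscle share, 163 with quantile normalization, 1253 with median centring, 61 with adipocyte centring and 0 to 109 without 1 array. The 750 slope calls outside the muscle lists became 1640 with log2(signal + 50), 439 with the upper 40%, 1562 with quantile normalization, 4363 with median centring, 1819 with adipocyte centring, 0 with array weights, 136 with no trend, 4 with the replicate block and 0 to 1705 without 1 array. Against RYGB-Success the 0 calls became 26 with array weights and 0 to 1050 without 1 array, the highest without Fail 3. The cause of these moves was not tested. Same-numbered arrays correlated at 0.29, -0.13 and 0 in their deviations from group means, so the numbers do not pair them. With the replicate block RYGB-Fail against Pair-Fed had 0 calls, 301 higher and 348 lower at an unadjusted p under 0.05.

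The droplet median stayed below 0 under every alternative run. It was -0.08 with adipocyte centring and -0.25 at equal muscle level, and that of adipocyte markers was -0.02 with adipocyte centring and -0.20 with the muscle share. Adipocyte centring makes the mean of these markers equal on every array, so their median near 0 follows from it. With log2(signal + 50), 1 of the list medians turned sign, to 0.07 for epithelial genes. With no filter, list medians that turned sign became -0.15 for heart markers, -0.50 for mast cell genes and 0.28 for epithelial genes. With the upper 40%, list medians that turned sign became -0.17 for heart markers, -0.20 for smooth muscle and -0.50 for mast cell genes. With quantile normalization, list medians that turned sign became -0.26 for muscle membrane genes, 0.03 for complex IV and -0.07 for mast cell genes. With median centring, list medians that turned sign became -0.07 for complex V, -0.03 for fatty acid oxidation, -0.06 for common glycolysis and -0.02 for mast cell genes. With adipocyte centring, list medians that turned sign became 0.41 for complex IV, 0.31 for adipokines, 0.26 for fat transcription factors, 0.38 for lipogenesis, 0.01 for triglyceride assembly, 0.30 for thermogenic genes, 0.01 for progenitors, 0.06 for macrophage genes, 0.35 for endothelium, 0.22 for epithelial genes, 0.29 for ribosomal proteins, 0.45 for immediate-early genes, 0.41 for heat shock, 0.53 for hypoxia, 0.47 for interferon and 0.28 for cell cycle genes. With array weights, list medians that turned sign became -0.21 for muscle membrane genes, -1.19 for heart markers, -0.02 for common glycolysis, 0.08 for macrophage genes, -0.01 for lymphocyte genes, 0.02 for immediate-early genes, 0.04 for heat shock and 0.12 for interferon. With only the 6 arrays, list medians that turned sign became -0.17 for heart markers, -0.09 for smooth muscle and 0.11 for epithelial genes. With the muscle share as covariate, list medians that turned sign became -0.51 for complex I, -0.54 for complexes II and III, -0.50 for complex V, -0.46 for the citric acid cycle, -0.52 for fatty acid oxidation, -0.32 for common glycolysis, 0.20 for adipokines, -0.12 for insulin and glucose genes, 0.04 for thermogenic genes, 0.19 for endothelium, 0.02 for nerve sheath, 0.28 for immediate-early genes, -0.08 for glucocorticoid targets and 0.54 for cell cycle genes. At equal muscle level, list medians that turned sign became -0.96 for complex I, -1.20 for complexes II and III, -0.96 for complex V, -0.92 for the citric acid cycle, -0.70 for fatty acid oxidation, -0.53 for common glycolysis, 0.33 for adipocyte markers, 0.69 for adipokines, 0.42 for fat transcription factors, 0.25 for lipogenesis, 0.05 for triglyceride assembly, -0.17 for insulin and glucose genes, 0.42 for thermogenic genes, 0.87 for endothelium, 0.43 for epithelial genes, 0.58 for nerve sheath, -0.60 for glucocorticoid targets and 1.31 for cell cycle genes. With log2(signal + 50), 1 of the changes of genes turned sign, to 0.52 for Pabpc4. With median centring, changes of genes that turned sign became -0.06 for Eno1 and -0.05 for Scd. With adipocyte centring, changes of genes that turned sign became 0.31 for Adipoq, 0.02 for Atp2a2, 0.06 for Ccl2, 0.28 for Cfd, 0.12 for Dgat2, 0.08 for Lpl, 0.43 for Pabpc4 and 0.05 for Plin1. With array weights, changes of genes that turned sign became 0.24 for Ccl2, -0.02 for Eno1, -0.30 for Myh1, 0.85 for Pabpc4, -0.24 for Ppargc1a, -0.24 for Scd and -0.24 for St6galnac2. With the muscle share as covariate, changes of genes that turned sign became 0.31 for Adipoq, -0.69 for Atp5f1a, 0.14 for Ccl2, 0.28 for Cfd, 0.06 for Lpl, -0.20 for Mrln, -0.01 for Pdlim3, -0.22 for Scd and -0.62 for Slc2a4. At equal muscle level, changes of genes that turned sign became 1.40 for Adipoq, -1.83 for Adss1, 0.26 for Agpat2, -1.57 for Atp5f1a, 0.39 for Cebpa, 1.14 for Cfd, 0.05 for Col4a2, 0.05 for Dgat1, 0.58 for Dgat2, -0.10 for Hjv, -0.19 for Idh3a, 0.10 for Lipe, 1.11 for Lpl, -2.86 for Mrln, -2.84 for Pdlim3, 0.65 for Plin1, 0.45 for Pparg, -1.23 for Slc2a4, -0.12 for Smtnl2 and -0.51 for Tpm1. Leaving out 1 array gave ranges that cross 0, of -0.13 to 0.58 for muscle membrane genes, -0.13 to 2.63 for slow fibre genes, -1.51 to 1.07 for heart markers, -0.08 to 0.48 for smooth muscle, -0.25 to 0.53 for complex I, -0.25 to 0.56 for complexes II and III, -0.57 to 0.21 for complex IV, -0.29 to 0.31 for complex V, -0.12 to 0.68 for the citric acid cycle, -0.27 to 0.27 for fatty acid oxidation, -0.11 to 0.09 for common glycolysis, -0.09 to 0.28 for insulin and glucose genes, -0.30 to 0.08 for thermogenic genes, -1.02 to 0.02 for macrophage genes, -0.27 to 0.37 for lymphocyte genes, -0.38 to 0.03 for endothelium, -0.10 to 0.45 for mast cell genes, -0.53 to 0.69 for epithelial genes, -0.43 to 0.25 for immediate-early genes, -0.03 to 0.19 for glucocorticoid targets, -0.25 to 0.01 for heat shock, -0.14 to 0.34 for interferon, -0.76 to 0.37 for cell cycle genes, -0.82 to 0.08 for Adipoq, -0.33 to 0.81 for Atp5f1a, -1.13 to 0.03 for Ccl2, -0.71 to 0.16 for Cfd, -0.09 to 0.12 for Eno1, -0.24 to 0.46 for Myh1, -1.90 to 2.03 for Pabpc4, -0.21 to 1.68 for Ppargc1a, -0.54 to 0.84 for Scd, -0.13 to 1.29 for Slc2a4 and -0.53 to 0.95 for St6galnac2. The cause of these turns was not tested. Of the gene values, 1428 kept direction and side of the threshold, 53 passed it in addition and 66 turned; of 835 list medians under alternatives, 112 changed sign, 37 of them by more than the spread between replicates (1 SD). Signals under 88.9 have no detection calls behind them, so low signals limit what these arrays can show.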
